A study of Sus scrofa with 75 samples.

Results

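The cytochrome P450 family was taken as every gene whose symbol in the assembled transcriptome annotation starts with CYP and a digit, which gave 39 genes of 35936 annotated. They carried 159 annotated transcripts, 78 of them assembled from long reads, and 15 of the 39 genes had a long-read transcript. Of 38 P450 symbols in the RefSeq table for the pig assembly, 14 were no symbol in the annotation, so a P450 gene listed under another name or under an identifier alone is outside this set. RNA came from heart, kidney, liver, lung and spleen of 12-month adult male pigs in 2 groups, coded BS and DSE, codes that the labels leave unexplained. The labels name no treatment and no genetic change in either group. Each group had 4 numbered animals, and each animal gave 1 ribosomal-RNA-depleted Illumina library per organ, 40 in all. Each group also had 1 PacBio library per organ, 10 in all, which read RNA molecules from end to end. Levels from the Illumina libraries are in TPM, a share of all transcripts scaled by their length, so that genes can be compared with each other. The numbers in the labels were read as animals, and nothing else in the labels tells how the samples of a group were taken. Another 25 samples, coded DT, were not analysed here.

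Cytochrome P450 enzymes hold a haem group and use it, with electrons from a partner protein, to put oxygen into fat-soluble molecules. Those of the endoplasmic reticulum take electrons from POR and cytochrome b5, and those of mitochondria from ferredoxin and its reductase. Liver P450s clear drugs and toxins and turn cholesterol into bile acids, kidney P450s activate and break down vitamin D and oxidise fatty acids, and lung P450s act on inhaled compounds. By these roles the set held 11 genes for foreign compounds, 8 for fatty acids and eicosanoids, 7 for sterols and bile acids, 4 for steroid hormones, 3 for vitamin D, 3 for retinoic acid and 3 that are less well known.

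The markers of each organ matched its label. The summed TPM of 7 hepatocyte genes was 81640 to 128300 in liver and at most 1193 elsewhere, and 4 genes of alveolar type II cells gave 18360 to 64910 in lung and at most 3.19 elsewhere. Proximal tubule genes gave 1541 to 3836 in kidney, and heart muscle genes 36240 to 52640 in heart. In spleen 3 B cell genes gave 245.1 to 610.8 TPM, against at most 80.07 elsewhere. The highest hepatocyte sum outside liver, 1193, was in the kidney of DSE animal 1, where the median kidney had 191. The liver of BS animal 4 had a heart muscle sum of 220, where the median liver had 0.881. The part of these libraries in the results below was not tested, except where values without an animal are given. In bulk organ RNA, fewer cells of a type and less RNA per cell cannot be told apart.

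Liver carried by far the largest amount of P450 transcripts. The 39 genes summed to 6256 ± 948 TPM in liver (SD, n = 8 animals), 1574 ± 415 in kidney, 1446 ± 291 in lung, 180 ± 34.4 in spleen and 59.8 ± 11.0 in heart. The lowest liver stood at 5163 and the highest library of any other organ at 2101. Of the 39 genes, 31 averaged 1 TPM or more in any of the 10 combinations of organ and pig group and were tested. The 8 others reached a group mean of at most 0.523 TPM. They were CYP17A1, CYP19A1 and CYP21A2 of steroid hormone synthesis, CYP26A1 and CYP26C1 of retinoic acid breakdown, the brain cholesterol hydroxylase CYP46A1, the skin lipid enzyme CYP4F22, and CYP2W1.

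**Figure D1:**
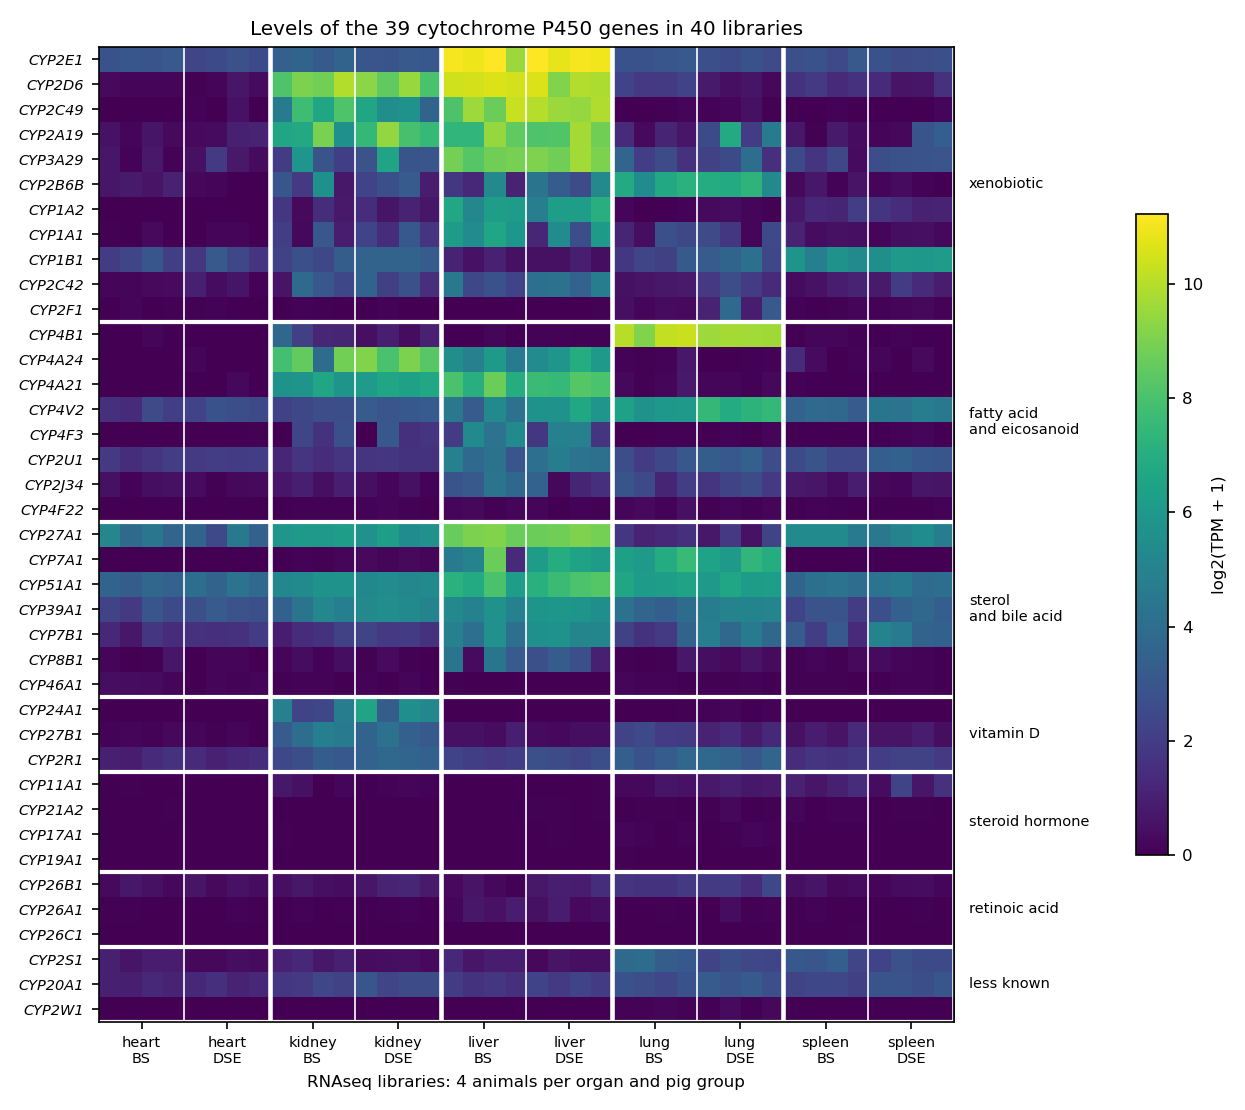
Levels of all 39 cytochrome P450 genes as log2(TPM + 1), with genes in rows grouped by role and the 40 Illumina libraries in columns, 4 animals per organ and pig group. The liver columns hold most of the bright cells, CYP4B1 is bright in lung only, and the steroid hormone genes stay dark in all 5 organs.

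Most tested members peaked in liver. The highest mean was in liver for 17 of the 31, in lung for 9, in kidney for 3, in spleen for 2 and in heart for 0. A gene was called enriched in an organ where it was at least 4-fold higher than in each of the 4 other organs on the log2(TPM + 1) scale, with every adjusted p under 0.05 in limma. On this rule 14 of the 31 members were enriched in 1 organ, 45.2%, against 10.4% of all 16905 genes tested. Liver had 8 of them (2.14% of all genes), kidney 3 (2.50%), lung 2 (2.58%), spleen 1 (1.44%) and heart 0 (1.70%). Compared directly, 18 members were higher in liver than in kidney, against 12.2% of all genes, and 7 were lower, against 66.2%. Against lung, 17 were higher in liver (11.9%) and 12 lower (76.7%), against spleen 23 (15.1%) and 4 (68.4%), and against heart 23 (31.6%) and 1, CYP1B1 (36.4%). Kidney was higher than lung for 13 members (25.8%) and lower for 13 (53.6%), and higher than spleen for 19 (34.1%) and lower for 7 (42.5%). Lung was higher than spleen for 14 (38.6%) and lower for 4 (20.1%). Scaling the libraries to a common median ratio moved the median of all genes between organs by up to 0.873 on the log2 scale, and with it 13 members were enriched in liver. It moved all genes toward liver, with shifts of −0.644 for kidney minus liver, 0.872 for liver minus lung and 0.705 for liver minus spleen. The count of 13 is given without the share of all genes under this scaling, so it cannot be read as particular to the family. The values below are on the TPM scale as deposited.

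The foreign-compound enzymes made up most of the liver total, 5016 TPM of the sum, against 944 in kidney, 154 in lung, 70.8 in spleen and 12.4 in heart. CYP2E1, which oxidises ethanol and other small molecules, was the most abundant P450 of liver, with 31.1% of the family's TPM there. Its lowest liver value was 743 TPM, in BS animal 4, the median 2108 and the highest 2408. Every other organ stayed between 4.08 and 11.3 TPM, and the difference between liver and kidney was 7.62 on the log2 scale (SE 0.142, limma adjusted p = 6.22e-32). The CYP2E1 gene (chromosome 14, 141690426 to 141736817) overlaps SYCE1 on the opposite strand, and whether the counting used strand is not stated.

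CYP2D6, a drug oxidase that RefSeq lists at this locus as CYP2D25, was high in liver and kidney. Its liver libraries ran from 547 through a median of 1389 to 1619 TPM, and its kidney libraries from 253 through 487 to 992. The ranges overlapped, and the mean difference was 1.29 on the log2 scale (adjusted p = 1.06e-06). It supplied 19.9% of the liver sum and 32.4% of the kidney sum, the largest share in kidney. CYP2C49 followed in liver with 12.7%, and its libraries spanned 271 to 1266 TPM there and 11.2 to 281 in kidney. The CYP2C49 annotation (chromosome 14, 106285173 to 106612455) covers 4 other annotated genes on the same strand, so the reads of neighbouring CYP2C copies may be split or pooled.

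CYP3A29, the pig drug oxidase of the CYP3A subfamily, separated liver from all other organs. Liver held 305 to 818 TPM and the highest library elsewhere, a kidney, 93.7. The kidneys themselves fell into unlike values. BS animals 1 to 4 had 2.98, 58.3, 6.64 and 3.20 TPM, and DSE animals 1 to 4 had 6.31, 93.7, 6.64 and 7.03. Animal 2 of each group was thus far above the other 3.

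CYP1A1 and CYP1A2, the oxidases of planar aromatic compounds that lie next to each other on chromosome 7, were both enriched in liver. CYP1A2 spanned 26.9 to 136 TPM in liver and at most 3.14 elsewhere, 4.79 above spleen on the log2 scale (SE 0.234, adjusted p = 1.31e-19). CYP1A1 spanned 1.32 to 96.1 TPM in liver, and 2 DSE animals, at 1.32 and 5.53, lay within the range of kidney, 0.193 to 7.42. Its related gene CYP1B1, which oxidises aromatic compounds and steroids, peaked in spleen instead. Spleen libraries held 27.8 to 73.3 TPM, kidney 3.60 to 11.1, lung 2.52 to 16.9 and liver at most 1.15 (spleen over kidney 2.61, SE 0.226, adjusted p = 1.16e-12). CYP1B1 supplied 29.2% of the P450 sum of spleen.

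CYP2A19, a pig enzyme of the nicotine and coumarin type, did not differ between liver and kidney beyond its spread (0.90, SE 0.535, adjusted p = 0.126), and passed with median-ratio scaling (0.00239). Its livers spanned 167 to 840 TPM and its kidneys 48.6 to 678. BS animal 3 was highest of its group in both organs, with 700 in liver and 508 in kidney. CYP2B6B, which lies where RefSeq places CYP2B22, a drug oxidase, was enriched in lung, with 38.2 to 159 TPM there. Liver held 1.13 to 37.7 TPM of it and kidney 0.67 to 48.1. Lung exceeded liver by 3.47 (SE 0.523, adjusted p = 2.01e-07), and the highest kidney, BS animal 3, overlapped the lowest lungs. CYP2C42, of the same subfamily as CYP2C49, stayed lower, at 13.4 ± 8.50 TPM in liver and 5.97 ± 4.43 in kidney.

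Among the fatty acid and eicosanoid enzymes, 1 gene carried most of the lung sum, 910 of 1033 TPM on average. CYP4B1, which hydroxylates medium-chain fatty acids and activates furan-type toxins, reached 553, 1039, 1183 and 1292 TPM in the 4 BS lungs and 772, 783, 823 and 838 in the 4 DSE lungs. The highest value in any other organ was 12.3 TPM, in a kidney. Lung exceeded kidney by 8.40 on the log2 scale (SE 0.21, adjusted p = 5.92e-28), and CYP4B1 made 62.6 ± 6.89% of the P450 sum of lung. The gene lies on chromosome 6, 164718440 to 164741047, beside CYP4A21 and CYP4A24.

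The CYP4A enzymes add a hydroxyl group to the end of fatty acids. CYP4A24 was enriched in kidney, with 232, 368, 14.9 and 457 TPM in BS animals 1 to 4 and 552, 258, 525 and 314 in DSE animals 1 to 4. BS animal 3 was the low kidney, below every other by more than 10-fold, and below the liver range of 24.8 to 124. CYP4A21 leaned to liver, at 122 to 413 TPM against 51.3 to 104 in kidney (1.54, SE 0.167, adjusted p = 2.68e-10). In the kidney of BS animal 3 CYP4A21 was at 96.8 TPM where the other BS animals had 51.3 to 54.9. The 2 genes are close copies, and CYP4A24 overlaps 5 annotated genes on its strand, so the split of reads between them is uncertain.

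CYP4V2, a fatty acid hydroxylase of the retina and other tissues, was highest in lung, at 54.0 to 179 TPM, then liver, spleen, kidney and heart, and every step of that order passed the test. Lung exceeded liver by 1.49 (adjusted p = 1.47e-08). With median-ratio scaling 2 of the steps did not pass, lung over liver (adjusted p = 0.163) and kidney over heart (0.469). CYP4F3, an oxidase of leukotrienes in the CYP4F subfamily, was enriched in liver, where it split the animals. BS animals had 2.90, 41.0, 18.5 and 39.4 TPM and DSE animals 2.51, 29.4, 28.6 and 2.21. CYP4F3 overlaps another identifier on its strand, and RefSeq names this locus CYP4F2. CYP2U1, a long-chain fatty acid hydroxylase, was highest in liver at 17.9 ± 6.70 TPM. CYP2J34, of the arachidonic acid epoxygenase subfamily, did not differ between liver (7.54 ± 6.56) and lung (3.69 ± 1.71) beyond its spread (adjusted p = 0.128), and was higher in liver with median-ratio scaling (1.36, adjusted p = 9.31e-05).

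The sterol and bile acid genes summed to 848 TPM in liver, 230 in lung, 137 in kidney, 69.4 in spleen and 36.6 in heart. CYP27A1, the mitochondrial sterol 27-hydroxylase, was enriched in liver at 397 to 557 TPM and was the member of largest share in heart, 26.0%. In the order liver, kidney, spleen, heart, lung every step passed, though with median-ratio scaling spleen over heart did not (adjusted p = 0.539). Kidney held 43.3 to 74.7 TPM, spleen 21.6 to 43.1, heart 4.54 to 35.9 and lung 0.443 to 3.93. CYP51A1, which removes a methyl group from lanosterol on the way to cholesterol, fell in the order liver, lung, kidney, spleen, heart, and again each step passed, though with median-ratio scaling CYP51A1 was 0.60 higher in heart than in spleen (adjusted p = 0.00164). Its libraries ran from 77.1 to 311 TPM in liver, 64.98 to 96.5 in lung, 36.2 to 53.3 in kidney, 11.4 to 22.0 in spleen and 8.84 to 18.6 in heart.

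CYP7A1, the rate-limiting enzyme of classical bile acid synthesis, was high in liver and in lung and at most 0.11 TPM on average elsewhere. The livers of BS animals 1 to 4 held 23.0, 31.2, 416 and 1.61 TPM, and those of DSE animals 73.0, 122, 87.5 and 73.1. The lungs held 83.1, 64.5, 121 and 191 TPM in BS and 91.1, 66.7, 166 and 125 in DSE. Liver values thus spread over a far wider range than lung values, the ranges overlapped, and lung exceeded liver by 1.05 (SE 0.471, adjusted p = 0.0373). That is about the median difference of all genes between these organs (liver minus lung −1.08), and with median-ratio scaling liver was above lung by 0.13 (adjusted p = 0.817). In the lungs the hepatocyte marker ALB lay between 0.292 and 11.1 TPM, against 36490 to 88170 in liver.

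The other bile acid genes favoured liver. CYP8B1, which sets the share of cholic acid, reached 8.61 ± 7.42 TPM in liver, with BS animal 2 at 0.268 and BS animals 1 and 3 both at 19.6, and at most 0.26 on average elsewhere. Its single exon lies inside a joint identifier on the other strand. CYP7B1, the oxysterol 7-hydroxylase of the second bile acid route, was highest in liver, at 16.0 to 51.3 TPM (1.73 over spleen, SE 0.291, adjusted p = 1.67e-06), and spleen and lung did not differ beyond their spread (adjusted p = 0.967). CYP39A1, which hydroxylates 24-hydroxycholesterol, stood at 46.1 ± 12.0 TPM in liver, 31.2 ± 11.5 in kidney and 22.1 ± 10.1 in lung, and both steps passed (adjusted p = 0.00354 and 0.0163).

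The 3 vitamin D genes summed to 55.4 ± 27.6 TPM in kidney and at most 12.3 ± 2.16 in another organ, and CYP24A1 and CYP27B1 carried the kidney sum. CYP27B1, the 1-alpha-hydroxylase that makes active vitamin D, held 8.03 to 28.2 TPM in kidney and 0.753 to 4.66 in lung (2.25, SE 0.165, adjusted p = 1.79e-14). CYP24A1, the 24-hydroxylase that breaks active vitamin D down, held 3.73 to 93.9 TPM in kidney and on average at most 0.0427 elsewhere (4.32 over lung, SE 0.298, adjusted p = 3.22e-15). CYP2R1, a 25-hydroxylase, stood at 9.82 ± 2.37 TPM in lung and 8.89 ± 2.91 in kidney (adjusted p = 0.262), and at 4.18 ± 1.16 in liver. VDR, the receptor of active vitamin D, measured 40.9 ± 5.52 TPM in kidney.

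The remaining groups were low. CYP11A1, which cleaves the side chain of cholesterol to start steroid synthesis, reached 1.39 ± 1.17 TPM in spleen, and the 2 adrenal cortex markers found, STAR and MC2R, summed to at most 0.653 TPM in any library. CYP26B1, which clears retinoic acid, was highest in lung at 2.62 ± 0.833 TPM. Among the less known genes, CYP2S1 stood at 7.85 ± 4.33 TPM in lung and 5.90 ± 1.95 in spleen (adjusted p = 0.0654), and CYP20A1 between 1.31 and 6.33 TPM on average in the 5 organs. In all, 9 members averaged 1 TPM or more in each of the 5 organs.

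BS and DSE animals differed in some members in each organ, in shares near or below those of all genes. Differences are BS minus DSE on the log2(TPM + 1) scale in limma. The spread of each gene was pooled over all 10 combinations of organ and pig group. In lung 12 members passed, against 49.0% of all genes, in kidney 10 (36.0%), in liver 7 (23.9%), in spleen 5 (27.8%) and in heart 1 (22.2%). Kidney had 4 higher in BS (19.1%) and 6 lower (16.8%), and liver 3 higher (16.0%) and 4 lower (7.93%). Spleen had 0 higher (11.3%) and 5 lower (16.5%), with 7 in either direction at an unadjusted limma p under 0.05 (38.6%), and heart 1 higher (15.3%) and 0 lower (6.96%), with 4 unadjusted (32.8%). Without 1 animal the counts of single organs moved by more than 1.5 times. Heart had 0 without BS animal 1, DSE animal 1, DSE animal 2 or DSE animal 4 and 2 without BS animal 3, BS animal 4 or DSE animal 3. Liver had 4 without DSE animal 3 or DSE animal 4, and spleen 3 without DSE animal 2 or 4 and 2 without DSE animal 3. The organs of an animal share that animal, so the 5 comparisons are not independent of each other.

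CYP4V2 was lower in BS in liver, lung and spleen. BS livers held 21.4, 8.48, 40.9 and 17.2 TPM and DSE livers 53.4, 52.9, 105 and 57.2, a difference of −1.70 (SE 0.279, adjusted p = 2.03e-05). BS lungs held 84.0, 54.0, 62.6 and 64.0 TPM and DSE lungs 179, 121, 152 and 176 (−1.24, adjusted p = 0.000509). All 4 BS values lay below all 4 DSE values in both organs, and also in spleen (11.2 against 21.6 TPM on average, −0.90, adjusted p = 0.0156) and kidney (4.72 against 7.80, adjusted p above 0.05). The spleen call was lost without BS animal 4 (adjusted p = 0.0761), DSE animal 3 (0.0573) or DSE animal 4 (0.0506).

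CYP2S1, which oxidises retinoids and eicosanoids, went the other way. BS lungs held 13.7, 14.8, 9.01 and 7.51 TPM and DSE lungs 3.98, 5.52, 4.20 and 4.13, with no overlap and a difference of 1.13 (SE 0.176, adjusted p = 6.88e-06). It was also higher in BS in kidney (0.63, adjusted p = 0.00547), liver (0.48, 0.0455) and heart (0.55, 0.0219), organs in which it averaged at most 1.04 TPM in either group. The heart call was lost without BS animal 1 or DSE animal 1, 2 or 4 (adjusted p 0.0591 to 0.0638), and the liver call without any of BS animals 1 and 3 and DSE animals 1 to 4 (0.0515 to 0.174).

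Lung had 3 members higher and 9 lower in BS, while among all genes 16.3% were higher and 32.7% lower. CYP2D6, at only 2.64 to 3.77 TPM in BS lungs and 0.173 to 0.774 in DSE lungs, was higher in BS by 1.52 (SE 0.297, adjusted p = 0.000106). CYP27B1 was higher by 1.04 (adjusted p = 0.000504), with BS lungs at 3.96, 4.66, 2.91 and 2.78 TPM and DSE lungs at 1.18, 1.50, 0.753 and 1.46. Neither gene had overlapping groups.

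CYP7B1 and CYP39A1, both oxysterol hydroxylases, were lower in BS lungs. CYP7B1 held 3.66, 2.13, 2.79 and 10.8 TPM in BS and 26.8, 12.9, 23.5 and 13.1 in DSE (−1.92, SE 0.412, adjusted p = 0.000298). CYP39A1 held 17.1, 11.6, 9.36 and 14.6 TPM in BS and 25.6, 31.8, 32.9 and 33.7 in DSE (−1.20, SE 0.267, adjusted p = 0.00045). The groups of both genes lay apart. CYP7B1 was lower in BS in spleen too, at 8.61, 3.11, 7.90 and 1.57 against 31.3, 24.4, 10.8 and 10.2 TPM (−1.73, adjusted p = 0.00219, and 0.0611 with spleen fitted alone).

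CYP2F1 and CYP2A19, which lie side by side on chromosome 6 and oxidise small aromatic compounds, were lower in BS lungs and very unequal among DSE lungs. CYP2F1 held 0.376, 0.118, 0.244 and 0.206 TPM in BS and 1.11, 13.3, 0.792 and 7.91 in DSE (−1.93, SE 0.322, adjusted p = 1.69e-05, and 0.0554 with lung fitted alone). CYP2A19 held 1.59, 0.225, 1.21 and 0.606 TPM in BS and 4.75, 117, 2.96 and 24.2 in DSE (−3.14, SE 0.757, adjusted p = 0.000976). DSE animals 2 and 4 were the high ones for both genes. CYP2F1 was the 1 member whose pig group difference varied between organs (interaction F test in limma, adjusted p = 0.0089), against 8.40% of all genes, and it averaged at most 0.101 TPM outside lung. That count was 0 without BS animal 2 or DSE animal 4, 2 without DSE animal 1 or 2, 3 without BS animal 1 and 4 without BS animal 3 or 4. CYP2F1 reached the mean of 1 TPM needed for testing only in DSE lungs, at 5.77 TPM against 0.236 in BS lungs. Its lung and interaction results are thus not independent of that filter. CYP2F1 is known as an enzyme of club cells, whose 3 markers summed to 10790, 35260 and 50400 TPM (lowest, median, highest) in BS lungs and 9127, 18320 and 19040 in DSE lungs. The sum was carried by SCGB1A1, at 8564 TPM or more in every lung. SCGB3A1 stood at 369, 28.5, 153 and 295 TPM in BS lungs and 413, 481, 528 and 196 in DSE lungs, and SCGB3A2 at 71.85 to 451 in BS and 110.7 to 149 in DSE. The part of these cells in the result was not tested.

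**Figure D2:**
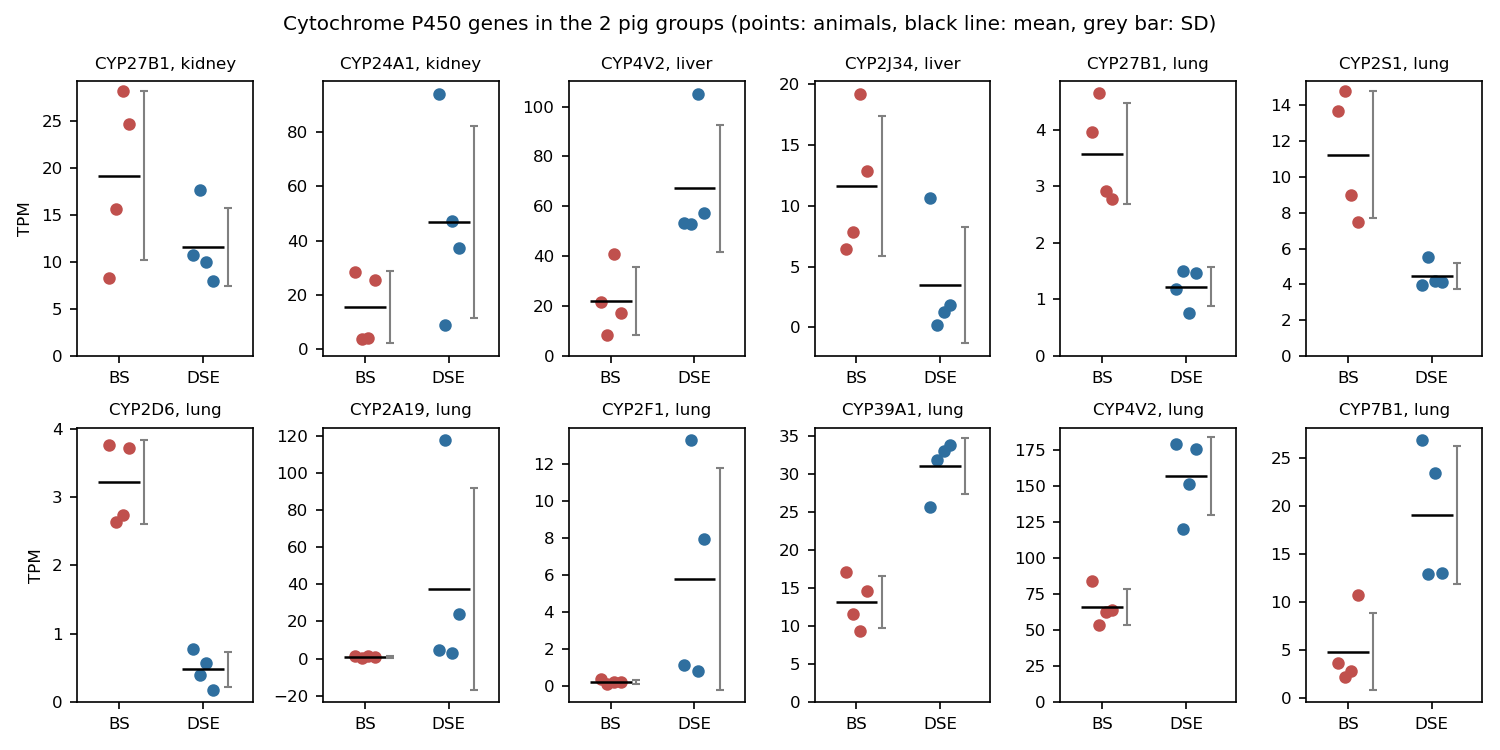
TPM of 10 cytochrome P450 genes in kidney, liver or lung, with 1 point per animal (4 BS in red, 4 DSE in blue), a black line at the group mean and a grey bar for 1 SD. CYP4V2, CYP2S1, CYP39A1, CYP2D6 and the lung panel of CYP27B1 show groups that do not overlap, while CYP24A1 and CYP27B1 in kidney overlap.

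In liver, CYP2J34 was higher in BS, at 6.48, 7.85, 19.2 and 12.9 TPM against 10.6, 0.199, 1.24 and 1.86 in DSE (1.93, SE 0.388, adjusted p = 0.000313, and 0.0956 with liver fitted alone). DSE animal 1 was above 2 BS animals. CYP26B1 was lower in BS without overlap (0.240 against 1.05 TPM on average, −0.71, adjusted p = 0.00149), at levels near or below 1 TPM. CYP1A1 was higher in BS, at 73.7, 41.6, 96.1 and 58.2 TPM against 1.32, 41.9, 5.53 and 68.8 (2.16, SE 0.678, adjusted p = 0.0174, and 0.198 with liver alone). The groups overlapped, and the difference fell to 1.28 (adjusted p = 0.185) without DSE animal 1, 1.78 (0.0796) without DSE animal 3 and 2.10 (0.0523) without BS animal 1. CYP51A1 was lower in BS (−0.69, adjusted p = 0.0309), but not with liver alone (0.267) and not without BS animal 4, whose liver was the lowest (−0.42, adjusted p = 0.236), BS animal 2 (0.106), DSE animal 3 (0.113) or DSE animal 4 (0.181).

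In kidney, both opposing vitamin D enzymes passed the test, though neither did with kidney fitted alone (adjusted p = 0.199 for CYP24A1 and 0.277 for CYP27B1). CYP24A1 was lower in BS, at 28.3, 3.73, 4.34 and 25.5 TPM against 93.9, 9.02, 47.1 and 37.4 (−1.62, SE 0.421, adjusted p = 0.00306). CYP27B1 was higher in BS, at 8.26, 15.6, 28.2 and 24.7 TPM against 10.8, 17.7, 9.95 and 8.03 (0.60, SE 0.233, adjusted p = 0.0418). Both pairs of groups overlapped. CYP27B1 did not pass without BS animal 2, 3 or 4 or DSE animal 1, 3 or 4 (adjusted p 0.0612 to 0.227), the lowest difference being 0.38 without BS animal 3, and without BS animal 1 the difference rose to 0.93. VDR stood at 40.2 ± 5.16 TPM in BS and 41.6 ± 6.58 in DSE kidneys. CYP4B1 was higher in BS kidneys, at 12.3, 3.42, 1.34 and 1.21 TPM against 0.366, 0.941, 0.311 and 1.06 (1.35, SE 0.297, adjusted p = 0.000626, and 0.108 with kidney alone), and the difference was 0.80 without BS animal 1 (adjusted p = 0.00564).

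Transcript usage, the percent of a gene's TPM that 1 transcript takes, was tested for genes with at least 5 TPM in both groups compared. A call needed an adjusted p under 0.05 in limma and a shift of at least 20 points. Between organs 7 members had a call, CYP27A1, CYP2A19, CYP2E1, CYP4A21, CYP51A1, CYP7A1 and CYP7B1. No share of all genes was computed for this total, only for each organ pair. By organ pair, 3 of 9 members tested were called between liver and lung (7.96% of all genes), 3 of 6 between liver and spleen (8.51%), 2 of 12 between kidney and liver (5.77%) and 2 of 4 between heart and liver (14.2%). Single genes of the family were called between heart and spleen (12.7%), kidney and lung (6.91%), kidney and spleen (7.88%) and lung and spleen (2.58%). Heart against kidney (4 tested, 13.5%) and heart against lung (3 tested, 12.3%) had 0 calls, with 2 genes each holding a transcript at an unadjusted limma p under 0.05. The unadjusted counts have no share of all genes to be set against, and a gene with several transcripts has several chances to pass.

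CYP27A1 used its long-read transcript PB.18858.1 (9 exons, 2525 nucleotides) for 71.9 ± 14.96% in heart, 64.3 ± 16.4% in kidney and 57.8 ± 10.8% in liver, against 35.6 ± 16.4% in spleen. The 3 differences from spleen passed (adjusted p = 0.000179, 0.00079 and 0.0031), and the one for liver fell to 18.6 points without BS animal 1. Among full-length PacBio reads, PB.18858.1 had 12 of 13 and 4 of 5 CYP27A1 reads in the BS and DSE spleen libraries. In liver it had 517 of 558 and 469 of 489. The lower share in spleen was thus not seen in the long reads, which were few in spleen. CYP51A1 used PB.12409.13 for 35.6 ± 10.1% in heart and 14.3 ± 5.12% in liver (adjusted p = 4.65e-05), and PB.12409.14 for 12.1 ± 12.1% and 34.0 ± 10.6% (0.0127). Without BS animal 4 or DSE animal 1 these shifts were 18.8 to 19.6 points, under the 20 required. In the full-length reads of the BS and DSE liver libraries, PB.12409.14 had 1 of 225 and 2 of 209 CYP51A1 reads. PB.12409.13 had 7 and 4 there, and PB.12409.5 had 211 and 196. In heart, PB.12409.14 had 0 of 34 and 1 of 25, PB.12409.13 2 and 1, and PB.12409.5 29 and 23. The long reads thus did not bear out these short-read shares.

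CYP4A21 used PB.9487.13 for 33.8 ± 29.9% in kidney and 0.655 ± 0.487% in liver (adjusted p = 0.0115). Its kidneys disagreed, with 36.2, 68.6, 0.11 and 59.4% in BS animals 1 to 4 and 71.4, 9.12, 0 and 25.2% in DSE animals 1 to 4. Of the kidneys with almost none of it, BS animal 3 had the low CYP4A24 level given above and DSE animal 3 had 525 TPM of CYP4A24. The CYP2A19 calls of ENSSSCT00000063929 against lung rested on 2 lungs of under 2 TPM, since it took 100% and 83.8% in BS animals 2 and 3 and under 1% in every other lung. Another CYP2A19 transcript, ENSSSCT00000003325, took 78.0 ± 9.26% in liver and 42.1 ± 47.8% in lung (adjusted p = 0.038). The lungs were far apart, at 100, 0, 16.2 and 100% in BS animals 1 to 4 and 96.7, 23.8, 0 and 0% in DSE animals 1 to 4. This call was lost with a pseudocount of 0.1 (adjusted p = 0.172) and without any 1 animal other than DSE animal 1 (0.0503 to 0.113).

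CYP2E1 was measured from unlike transcripts in liver and elsewhere. ENSSSCT00000011795, of 10 exons, made up 92.3 ± 1.78% of its TPM in liver, and it was at 0 in every heart, lung and spleen and in every kidney but that of DSE animal 1, at 2.40%. That kidney was the one with the hepatocyte sum of 1193. ENSSSCT00000088500, of 12 exons and reaching 141736817, over SYCE1, made up 0.895 ± 0.612% in liver, 98.7 ± 3.50% in heart, 99.4 ± 1.19% in kidney and 99.6 ± 0.827% in spleen. Between kidney and liver both shifts passed (adjusted p = 6.87e-14 and 3.49e-13). The CYP2E1 values given for heart, kidney, lung and spleen thus belong almost wholly to the transcript that shares its place with SYCE1.

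Between the pig groups, 1 gene each was called in liver (5.19% of all genes), lung (10.6%) and spleen (6.10%). In kidney 0 of 13 tested were called (5.82%), with 6 at an unadjusted limma p under 0.05, and in heart 0 of 2 (7.22%), with 0 unadjusted. For these unadjusted counts too, no share of all genes was computed, so they cannot be read as a difference of the family. In lung, CYP39A1 transcript ENSSSCT00000058655 (8 exons, 987 coding nucleotides, against 12 exons and 1410 in ENSSSCT00000001920) was listed at 0 in all 4 BS animals and took 39.1, 17.0, 26.5 and 20.5% in DSE (adjusted p = 0.00228). The same transcript was at 0 in 3 BS livers and 10.5% in BS animal 3, and at 34.8, 23.3, 15.8 and 6.97% in DSE livers, where no call was made. CYP39A1 overlaps a U6 gene on the other strand.

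In spleen, CYP7B1 transcript PB.5676.12, which starts inside the gene at 69751200 on chromosome 4 where ENSSSCT00000006817 starts at 69616049, took 72.7, 0, 77.7 and 41.8% in BS and 98.3, 97.0, 94.2 and 95.5% in DSE (adjusted p = 0.0315). That call was lost without BS animal 4 or any 1 DSE animal (adjusted p 0.0589 to 0.0785). In lung PB.5676.12 was at 0 in all 4 BS animals and at 37.1, 31.2, 51.1 and 45.0% in DSE, but BS lungs were under 5 TPM on average and no test was made. Over both groups PB.5676.12 took 72.2 ± 34.8% in spleen, 24.6 ± 13.2% in liver and 20.6 ± 22.7% in lung (adjusted p against spleen 0.000685 and 0.0003). Among full-length PacBio reads, PB.5676.12 had 1 of 2 CYP7B1 reads in the BS spleen library and 4 of 11 in the DSE one. It had 0 of 11 and 0 of 20 in the BS and DSE lungs and 0 of 71 and 0 of 58 in the livers. The long reads thus did not bear out its short-read shares in liver and DSE lung. In DSE spleen too, 4 of 11 was a lower share than the 94.2 to 98.3% of the short reads, though from few reads. BHLHE22 overlaps CYP7B1 on the other strand.

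In liver, CYP2C49 transcript PB.17708.3 (8 exons, 1272 coding nucleotides) took 21.0, 6.99, 7.49 and 7.95% in BS and 31.6, 38.9, 30.8 and 30.1% in DSE, with no overlap (adjusted p = 0.0205). It began at 106571790 on chromosome 14, while ENSSSCT00000060311, which took most of the rest, began at 106285173. Without BS animal 2 or 4 or DSE animal 1 or 2 the call was lost (adjusted p 0.0513 to 0.0594). Among full-length PacBio reads, PB.17708.3 had 0 of 32 CYP2C49 reads in the BS liver library and 2 of 16 in the DSE one. PB.17708.2, an identifier that the annotation does not hold, had 24 and 11. Whether its exons match an annotated transcript under another name was not tested. The long reads, few in number, thus did not bear out the short-read shares of PB.17708.3.

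**Figure D3:**
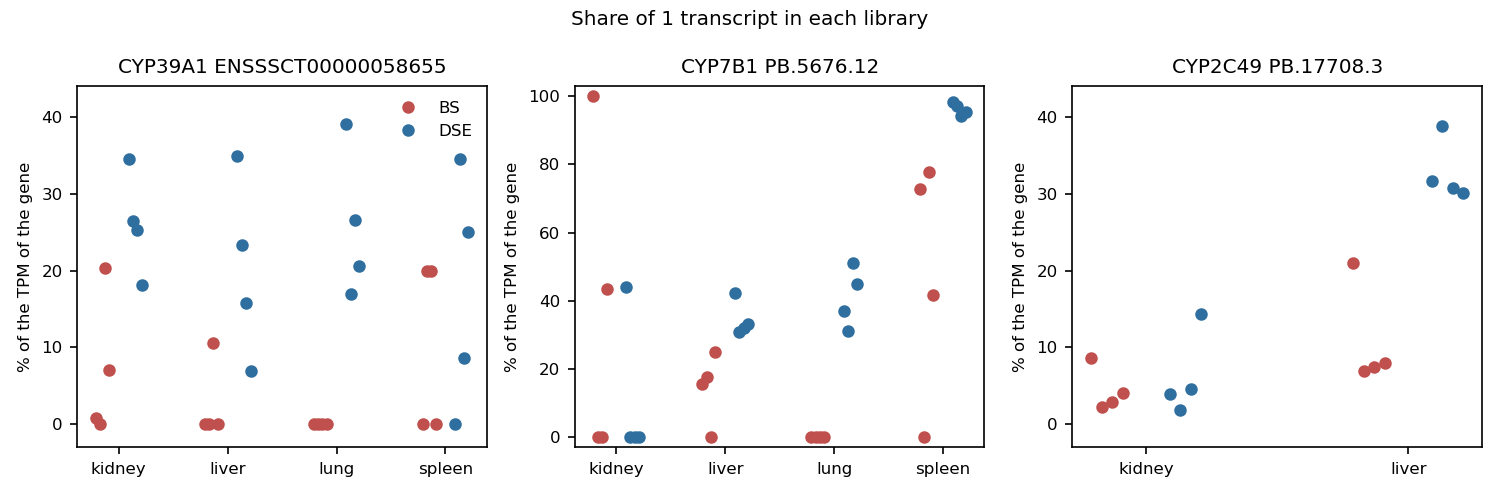
Percent of the gene's TPM taken by 1 transcript of CYP39A1, CYP7B1 and CYP2C49 in each library, by organ, with BS animals in red and DSE animals in blue. In lung all BS animals are at 0 for the CYP39A1 and CYP7B1 transcripts and all DSE animals lie at 17.0% or above.

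The long reads gave a second view of CYP7A1 in liver and lung. CYP7A1 (chromosome 4, 74343123 to 74372638) has annotated transcripts from an outer start at or near 74343123 and 1 transcript, PB.5700.13, from an inner start at 74360994, 17871 nucleotides downstream. PB.5700.13 has 6 exons, the first of 2432 nucleotides, and PB.5700.7, an outer transcript, has 8. Both share the coding start at 74363346 and 1506 coding nucleotides, so they differ in the leader before it. RefSeq also lists SDCBP over this span, so the split of reads and of TPM between the 2 genes near the outer start is uncertain. In liver, 217 of 229 full-length reads in BS and 145 of 157 in DSE were assigned to PB.5700.13. These were 94.8% (exact 95% binomial interval 91.0 to 97.3) and 92.4% (87.0 to 96.0). In lung, 2 of 282 and 2 of 153 were assigned to it, 0.709% (0.086 to 2.54) and 1.31% (0.159 to 4.64). Reads were counted by transcript, and the place where each read itself began was not measured. A further 18 and 15 lung reads had a transcript identifier of this locus that the annotation does not hold. Whether its exons match an annotated transcript under another name was not tested. The intervals cover counting error only, and each organ had 1 library per pig group.

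The Illumina estimates differed from this in liver. PB.5700.7, with 0 full-length reads in both livers, was given 97.8 ± 1.04% of the liver TPM and 77.2 ± 3.29% of the lung TPM (adjusted p = 2.97e-05). PB.5700.13 was given 2.09 ± 0.997% in liver and 2.36 ± 1.27% in lung. ENSSSCT00000006836, another outer transcript, was at 0 in every liver and at 10.3 ± 2.61% in lung. The leader of CYP7A1 in liver is thus given differently by the 2 methods, and no full-length read of CYP7A1 was seen in heart, kidney or spleen of either group.

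**Figure D4:**
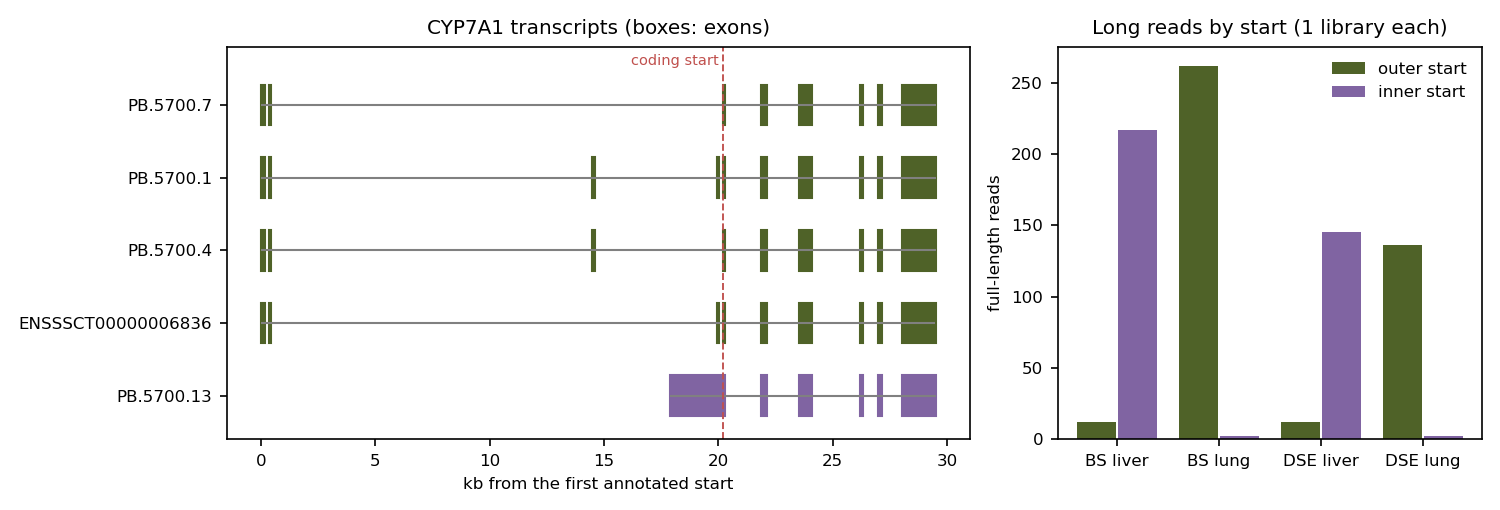
Left, exons of 5 CYP7A1 transcripts in kilobases from the first annotated start, with the transcript from the inner start in purple and the shared coding start dashed. Right, full-length reads by the annotated start of their transcript in the liver and lung library of each pig group. The 33 lung reads of the transcript whose identifier the annotation lacks are left out. Liver reads were mostly assigned to the transcript of the inner start (217 and 145) and lung reads to transcripts of the outer start (262 and 136).

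Full-length counts gave an organ pattern of their own for the 12 members that passed the count filter. With edgeR's quasi-likelihood test and pig group as a term, 7 of the 12 were at least 4-fold above each other organ, against 15.3% of 4110 genes. In liver these were CYP27A1, CYP2C49, CYP2E1, CYP51A1 and CYP7B1 (4.55% of all genes), in lung CYP4B1 (1.63%) and in spleen CYP1B1 (1.63%). CYP2E1 had 597 and 730 reads in the BS and DSE liver libraries and 1 read in the other 8 libraries together. CYP27A1 had 558 and 489 in liver, 107 and 24 in kidney and 0 in both lungs. CYP4B1 had 304 and 418 in lung and at most 4 elsewhere.

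The remaining members had fewer full-length reads. CYP51A1 had 225 and 209 in liver, 165 and 50 in kidney and 98 and 71 in lung. CYP7B1 had 71 and 58 in liver, CYP2A19 had 80 and 53 in liver and 45 and 33 in kidney, CYP4V2 had 42 and 39 in lung and CYP39A1 had 26 and 10 in kidney. CYP1B1 had 35 and 18 in spleen, and CYP2C49 had 32 and 16 in liver. The CYP2C49 call was lost without the BS liver library (adjusted p = 0.0977). CYP7A1 did not differ between liver and lung in these counts (0.85, adjusted p = 0.0703) and was above spleen by 11.4, a fitted value that depends on a group at 0.

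CYP2D6, at 1235 ± 381 TPM in liver, had 16 and 18 full-length reads there. With DESeq2 in place of edgeR, CYP2E1 (liver over spleen, adjusted p = 0.0808) and CYP4B1 (lung over kidney, 0.247) did not pass. The log2 differences were of like size with both tools, 10.7 against 10.5 in edgeR for CYP2E1, and for CYP4B1 7.42 in DESeq2 and, as kidney minus lung, −7.27 in edgeR.

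The genes that serve P450 enzymes were looked at through 3 lists. Of all genes tested, 12.2% were higher in liver than in kidney and 66.2% lower. These shares were 31.6% and 36.4% against heart, 11.9% and 76.7% against lung, and 15.1% and 68.4% against spleen. Of 9 redox partners, 8 were higher in liver than in heart and 0 lower, with a median difference of 1.31 against −0.02 for all genes. Against kidney 1 was higher and 3 lower (0.12 against −0.67). Against lung 5 were higher and 3 lower (0.38 against −1.08), and against spleen 7 and 2 (1.09 against −0.83). CYB5A, cytochrome b5, led in liver at 1735 ± 381 TPM, before PGRMC1, a haem-binding P450 partner, at 1142 ± 179, and POR, the reductase, at 149 ± 44.3 TPM. POR was 1.04 higher in liver than in kidney (adjusted p = 4.9e-06), while PGRMC1 did not differ (0.01, adjusted p = 0.97).

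Of 17 tested regulators, nuclear receptors and liver transcription factors among them, 11 were higher in liver than in kidney (12.2% of all genes) and 3 lower (66.2%). The median difference was 0.79 against −0.67 for all genes. Against heart the counts were 15 and 0 (3.37), against lung 11 and 5 (2.32) and against spleen 11 and 5 (2.73). HNF4A, a factor of the liver and kidney programme, led in liver at 120 ± 23.8 TPM, followed by NR1H3, an oxysterol receptor, at 77.2 ± 24.6, and NR1H4, the bile acid receptor, at 76.2 ± 25.9. HNF4A was lower in liver than in kidney by 0.50 (limma adjusted p = 0.00112), a smaller drop than the median of all genes (−0.67).

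Of 10 genes of haem synthesis and breakdown, 3 were higher in liver than in kidney (12.2% of all genes) and 5 lower (66.2%). The median difference was −0.22 against −0.67 for all genes. Against heart the counts were 6 and 2 (31.6% and 36.4%), against lung 5 and 4 (11.9% and 76.7%) and against spleen 5 and 4 (15.1% and 68.4%). ALAS1, the rate-limiting enzyme of haem synthesis outside red cells, stood at 212 ± 197 TPM in liver, with a range of 24.8 to 598, before HMOX1 at 137 ± 72.8 and HMOX2 at 90.4 ± 37.4, the haem oxygenases. Between the pig groups 3 of the 10 were higher in BS and 0 lower in each of kidney, liver and lung, 4 and 0 in spleen and 2 and 0 in heart. Of all genes, 19.1% were higher in BS in kidney, 16.0% in liver, 16.3% in lung, 11.3% in spleen and 15.3% in heart. The shares lower in BS were 16.8%, 7.93%, 32.7%, 16.5% and 6.96%. HMOX2 was among the haem genes higher in BS in all 5 organs, from 0.37 in lung (limma adjusted p = 0.0243) to 1.04 in kidney (5.1e-07). Redox partners went both ways, with 3 higher and 2 lower in heart and in lung, 2 and 2 in kidney, 2 and 1 in liver and 1 and 3 in spleen. Regulators had 2 and 0 in heart, 2 and 1 in kidney, 4 and 2 in liver, 2 and 3 in lung and 0 and 1 in spleen.

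Across the 8 livers, pairs of genes were compared by correlation of log2(TPM + 1), with exact permutation p-values adjusted over the 3 pairs computed, of which 2 are given here. CYP1A1 and CYP1A2 gave a Pearson r of 0.623 (exact permutation p = 0.0745, adjusted 0.112) and a Spearman rho of 0.5 (p = 0.216, adjusted 0.324). Without the 2 farthest livers r was 0.553, and with pig group means subtracted it was 0.794 (exact permutation, adjusted p = 0.0182). CYP7A1 and CYP8B1 gave r = 0.114 (exact permutation p = 0.789, adjusted 0.789) and rho = 0.143 (p = 0.752, adjusted 0.752), and 0.00448 without the 2 farthest livers. With 4 animals per pig group, r within a group was not computed.

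**Figure D5:**
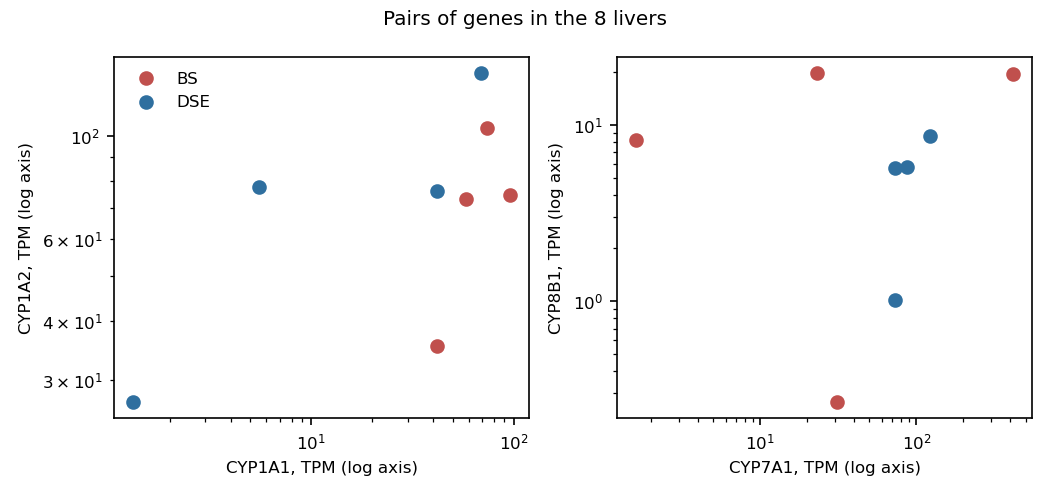
TPM of 2 pairs of genes in the 8 livers on log axes, with 1 point per animal, BS in red and DSE in blue. CYP1A1 and CYP1A2 scatter widely (r = 0.623), and CYP7A1 and CYP8B1 show no common order (0.114).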

How the data were processed

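The authors deposited gene and transcript levels as TPM and full-length PacBio reads per transcript as counts. Per the submitters' processing notes, the tools were STAR 2.7.10a and Salmon 1.10.1 and the build susScr11, with no role stated. Per the file headers, rtracklayer 1.58.0 wrote the annotation. Whether counting used strand is not given in the sources used here. Of the columns for genes 20, of those for transcripts 20 and of those for full-length reads 5 matched no label and were not used. Short-read depth is unknown, and each PacBio library held 119623 to 456783 full-length reads.

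TPM was tested with limma 3.58.1 (R 4.3.3) on log2(TPM + 1) in 1 fit of 10 groups with a variance trend, and Benjamini-Hochberg adjustment ran over the 16905 genes that averaged 1 TPM or more in any group. Usage was tested in limma as the log2 of a transcript's TPM over that of its gene's other transcripts, 0.5 TPM added to both. Full-length counts were summed per gene through the annotation (51.9% of reads) or the locus (35.9%). Reads of loci with several genes (3.16%) or none (9.10%) were left out. They were tested with edgeR 4.0.16, with DESeq2 1.42.0 as the alternative. Symbols came from the annotation. Correlations used Python 3.11.15 and scipy 1.17.1, tables pandas 2.3.3 and numpy 2.4.6, and plots matplotlib 3.10.9. The tests were checked on simulated data.

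The genes, lists, thresholds and pairs were chosen with earlier results of these data known. Genes were named if among the 5 highest of an organ, enriched, among the 10 lowest adjusted p between pig groups, called in usage or with 20 full-length reads in a library, and otherwise to account for every gene. The 3 genes of each partner list highest in liver were named, and others of those lists (VDR) and the kidney and liver calls of CYP27B1, CYP1A1 and CYP51A1 were chosen after their values were seen. A further planned pair, CYP3A29 with CYP2B22, was not run because the annotation has no CYP2B22. 1 pair was computed and is not reported here.

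The labels give only numbers, so p-values measure the spread between samples, which may in part be technical. The TPM fit pooled the spread of each gene over all 10 groups, including organs where the gene was near 0. Its p-values for pig groups in an organ thus do not measure the spread within that organ alone. The fits of the organ alone used only the spread of that organ. Deviations from group means were correlated to see what the animal numbers pair. Organs of 1 animal gave a median r of 0.14 (51 of 80 pairs over 0.1), while a BS and a DSE animal of 1 number gave −0.0299 (1 of 20 over 0.1), so numbers tie organs to animals and pair nothing across pig groups. Alternatives were another pseudocount, no filter, median-ratio scaling, leaving out each animal, a fit of the organ alone and replicate blocks.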

Additional observations from a re-analysis of the deposited data

Results flagged for a closer look

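In 15 of 190 groups of 4 animals with a P450 gene checked, 7.9%, 1 animal lay far from the other 3. In 2 of the 15 that animal was below the others. The rule's rate of 1 in 20 holds for independent normal values, while these were raw TPM of groups that share animals. The 7.9% thus has no chance rate to be set against. In kidney, CYP3A29 was at 58.3 TPM in BS animal 2 (others 2.98 to 6.64) and 93.7 in DSE animal 2 (others 6.31 to 7.03). CYP2A19 was at 508 in BS animal 3 (others 48.6 to 107) and 678 in DSE animal 2 (others 176 to 250). BS animal 3 also had kidney CYP2B6B at 48.1 (others 0.67 to 6.92) and CYP4A21 at 96.8 (others 51.3 to 54.9), and DSE animal 4 had a low CYP1B1 of 8.57 (others 10.9 to 11.1).

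In liver, BS animal 3 had CYP7A1 at 416 TPM (others 1.61 to 31.2) and CYP2B6B at 37.7 (others 1.13 to 2.57). BS animal 1 had CYP2C42 at 22.4 (others 3.80 to 6.07), DSE animal 1 had CYP2J34 at 10.6 (others 0.199 to 1.86) and DSE animal 3 had CYP4V2 at 105 (others 52.9 to 57.2). In lung, CYP26B1 was at 2.72 in BS animal 4 (others 2.15 to 2.21) and CYP2S1 at 5.52 in DSE animal 2 (others 3.98 to 4.20). In spleen, CYP27A1 was low at 23.3 in BS animal 4 (others 38.3 to 41.1).

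CYP2F1 was the gene whose BS minus DSE difference varied between organs in limma's interaction test (adjusted p = 0.0089). It was tested only because its mean in DSE lungs passed the filter, so this result is not independent of that filter.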

How the results depend on the processing

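No count and no pig group or usage result changed direction under an alternative. With median-ratio scaling some organ differences of single genes turned, among them lung over liver for CYP7A1 and spleen over heart for CYP51A1. For CYP20A1, kidney minus liver went from 0.44 (limma adjusted p = 0.000287) to −0.29 (0.00897). Single genes and transcripts kept their call in 838 cases and lost it in 157, and all 13 alternatives kept CYP4V2 in liver and lung and CYP2S1, CYP2D6, CYP27B1 and CYP39A1 in lung between the pig groups. Counts of pig group calls were the least stable. Heart (1) gave 2 with a pseudocount of 0.1 TPM, with no filter or with median-ratio scaling, 3 fitted alone and 0 to 2 without an animal. Fitted alone, kidney gave 7 for 10, lung 9 for 12, liver 4 for 7 and spleen 3 for 5, and without an animal liver gave 4 to 10 and spleen 2 to 5. The replicate number, which pairs no animals, used as a block left 2 calls for heart, 0 for kidney (10), 1 for liver, 6 for lung (12) and 2 for spleen. The interaction (1) gave 3 with a pseudocount of 0.1, 2 with no filter, with scaling or with the animal as a replicate block, and 0 to 4 without an animal. Median-ratio scaling raised the liver-enriched genes from 8 to 13, and it also moved the median of all genes toward liver against kidney, lung and spleen. A usage minimum of 1 TPM raised the organ calls from 7 to 11, and without an animal the pig group usage calls (3) were 1 to 4. No share of all genes was computed for these totals. With pig group means subtracted, CYP1A1 and CYP1A2 passed (r = 0.794). The causes were not tested. Short-read depth being unknown, low TPM values carry no counting interval, close copies share reads, and each organ had 1 full-length library per pig group.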
